A study of Mus musculus with 3 samples.

Results

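The keratin-associated protein genes are the protein-coding genes of the mouse genome (GRCm38) whose symbol begins with Krtap. The rule found 56 such genes among 21887 protein-coding genes, 24 of them on chromosome 16, 23 on chromosome 11, 5 on chromosome 7, 3 on chromosome 10 and 1 on chromosome 1. Occupancy of these genes by the histone deacetylase HDAC3 and the transcription factor KLF4 was read from 2 deposited peak lists of chromatin immunoprecipitation and sequencing (ChIP-seq). All 3 libraries share genotype (wild-type), age (E18.5 mouse embryo) and tissue (epidermis of the back): 1 was precipitated with anti-HDAC3 (Abcam ab7030), 1 with anti-KLF4 (R&D AF3158), and 1 was input without antibody. Both lists had been called against the same input, and since each antibody was used in 1 library, no replicate spread could be measured and no test was run.

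Keratin-associated proteins form the matrix in which the keratin filaments of the hair shaft are embedded, cross-linking them through disulfide bonds. They are made late in the differentiation of the hair cortex and cuticle, and not as structural proteins of the interfollicular epidermis. Their genes are short, lie in tandem clusters and are classed by protein composition as high-sulfur, ultrahigh-sulfur or high glycine-tyrosine. KLF4 is a zinc finger factor of the differentiating epidermis and the skin barrier, and HDAC3 is the deacetylase subunit of the NCoR and SMRT corepressor complexes.

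The sequence just before the transcription start is shown for 4 genes of the chromosome 11 cluster: Krtap9-3, with peaks of both factors directly upstream of its start; Krtap2-4, whose peaks lay farther upstream; Krtap4-1, whose KLF4 peak lay inside the gene; and Krtap9-5, a family relative of Krtap9-3 whose HDAC3 peak lay at the other end of the gene. Each window holds the 250 bases before the start, 5′ to 3′ on the gene's own strand, from RefSeq (GRCm38.p6). Capitals mark TATAAA, the core of the TATA box, and matches to GGGNGTG or its reverse complement CACNCCC, letters of the kind that KLF factors bind.
Krtap9-3: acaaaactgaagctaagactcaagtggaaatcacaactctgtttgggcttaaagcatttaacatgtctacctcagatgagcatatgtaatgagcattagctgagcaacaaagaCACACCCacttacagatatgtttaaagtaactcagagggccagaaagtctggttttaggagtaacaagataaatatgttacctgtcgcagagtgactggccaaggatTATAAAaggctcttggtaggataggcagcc
Krtap2-4: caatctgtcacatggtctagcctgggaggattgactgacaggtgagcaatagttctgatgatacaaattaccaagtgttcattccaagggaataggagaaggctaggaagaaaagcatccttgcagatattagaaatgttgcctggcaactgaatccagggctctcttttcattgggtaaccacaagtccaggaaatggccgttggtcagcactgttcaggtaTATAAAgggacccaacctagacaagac
Krtap4-1: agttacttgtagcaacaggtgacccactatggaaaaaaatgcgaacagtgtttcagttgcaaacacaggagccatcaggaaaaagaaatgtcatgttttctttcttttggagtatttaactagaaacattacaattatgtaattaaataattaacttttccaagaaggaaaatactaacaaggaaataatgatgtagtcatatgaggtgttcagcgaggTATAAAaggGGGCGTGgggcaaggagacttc
Krtap9-5: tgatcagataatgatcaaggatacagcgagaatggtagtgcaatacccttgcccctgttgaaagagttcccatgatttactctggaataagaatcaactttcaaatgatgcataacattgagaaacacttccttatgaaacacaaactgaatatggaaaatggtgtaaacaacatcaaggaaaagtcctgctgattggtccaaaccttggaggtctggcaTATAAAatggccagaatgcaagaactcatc

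The windows lie at chr11:99598107-99598356 for Krtap9-3, chr11:99614847-99615096 for Krtap2-4 and chr11:99628240-99628489 for Krtap4-1, all on the minus strand, and at chr11:99948174-99948423 for Krtap9-5 on the plus strand. In the Krtap9-3 window the run CACACCC, from base 137 to base 131 before the start, lay inside both peaks, its middle 29 bp from the centre of the KLF4 peak and 54 bp from that of the HDAC3 peak. The KLF4 peak covered 185 of the 250 bases and the HDAC3 peak 155. The Krtap4-1 window also holds a match, GGGCGTG, from base 22 to base 16 before the start, but no peak covered it and the nearest KLF4 centre was 592 bp away. No such run was found in the Krtap2-4 and Krtap9-5 windows.

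Across the 51 members with a promoter in the reference table, 41 (80.4%) held TATAAA on either strand within the 250 bases, against 12.4% of all 32851 promoters. The KLF-type run GGGNGTG was found in 7 of the 51 (13.7%), against 26.1% of all promoters, and the AP-1 letters TGANTCA in 10 (19.6%), against 6.75%. These counts describe letters in a window, with both strands searched, and were not tested. Some stretches before the start were repeated: 12 of the 51 promoters (23.5%) shared at least 1 stretch of 36 bases with the promoter of another gene, against 10.1% of the 27025 genes, noncoding ones included, with a promoter in the table. The extent ranged from 4 of 215 stretches in Krtap4-8 to 125 in Krtap4-9 and 126 in Krtap4-13, which shared theirs with Krtap4-6 and with Gm11595, a coding gene of the cluster without a Krtap symbol, among others. None of these 12 genes had a gene-end peak of either factor, but neither did most members, with 49 of all 56 lacking one. How reads from such repeats were placed is not given in the sources used here. Its part in the low share of members with a gene-end peak, given below, was not tested.

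Few hair keratin-associated protein genes carried either factor at their ends. An HDAC3 peak was centred within 1 kb of either end of 5 of the 56 genes (8.93%, 95% Clopper-Pearson interval 2.96 to 19.6), where 18.9% of all protein-coding genes had one. KLF4 peaks were centred that close to 4 of the 56 (7.14%, 1.98 to 17.3), against 23.1% of all protein-coding genes. Both factors were present at 2 genes, Krtap9-3 and Krtap2-4 (3.57%, 0.435 to 12.3; all genes 10.3%), and at least 1 factor at 7 (12.5%; all genes 31.7%), which leaves 49 without a gene-end peak. The intervals for HDAC3 and for both factors include the share of all genes, and the KLF4 interval lies below it. All these intervals cover counting error alone, and genes of 1 cluster are neighbours and not independent. Members are shorter than most genes, with a median length of 833 bp against 17169 bp, so the windows at their ends covered a median of 2833 bp against 4000 bp.

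Wider rules gave the same order. Within 5 kb of an end, 16 members had an HDAC3 peak (28.6%; all genes 46.2%) and 12 a KLF4 peak (21.4%; all genes 46.0%). Counting every peak that was nearest to a gene or within 1 kb of its ends, 19 members had an HDAC3 peak (33.9%; all genes 65.3%) and 9 a KLF4 peak (16.1%; all genes 60.3%), and 22 had at least 1 factor (39.3%; all genes 74.7%), which leaves 34 of the 56 with neither. A gene close to its neighbours is nearest to less sequence, so this last rule depends on the crowding of the clusters.

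**Figure D1:**
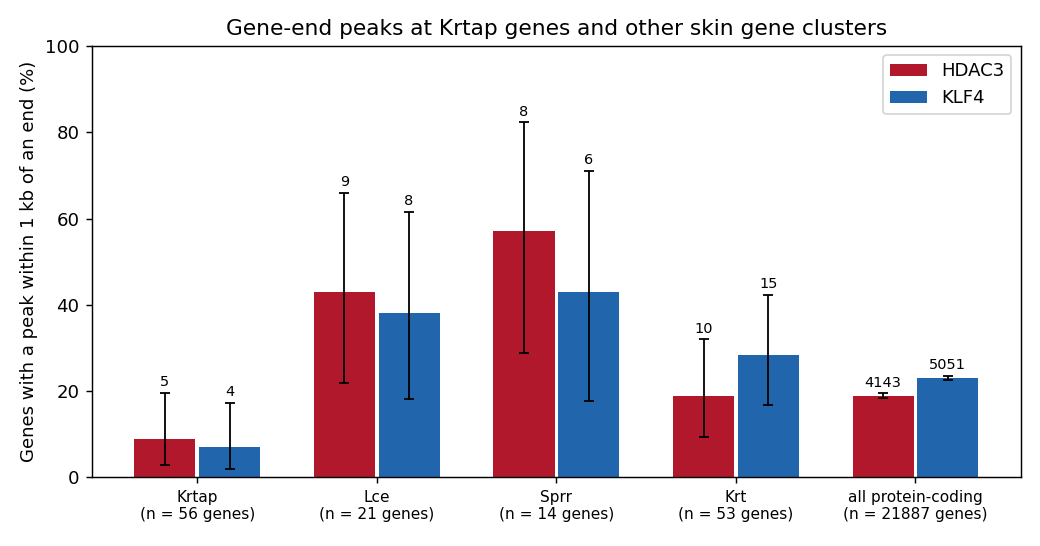
Share of genes with a peak centred within 1 kb of either annotated end, for HDAC3 (red) and KLF4 (blue), in Krtap genes, 3 other skin gene families and all protein-coding genes. Bars start at 0, error bars are 95% Clopper-Pearson intervals, and each bar is labelled with its number of genes; Krtap genes have the lowest bars, at 8.93% and 7.14%.

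Other tandem families of the skin had larger shares of genes with a gene-end peak. The late cornified envelope genes (Lce), which encode precursors of the horny layer, carried HDAC3 at an end in 9 of 21 cases and KLF4 in 8. The small proline-rich protein genes (Sprr), whose products are cross-linked into the same envelope, did so in 8 and 6 of 14 cases. Among the keratin genes (Krt followed by a digit), HDAC3 was at an end of 10 of 53 (18.9%, the share of all genes) and KLF4 at an end of 15 (28.3%). Differences between the families were not tested.

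The peaks assigned to the members numbered 30 for HDAC3 and 10 for KLF4, out of 57936 and 47155. HDAC3 peaks scored from 16 to 85 with a median of 20, where the score is the tag number that the authors' caller gives a peak and the median of the whole list was 22. KLF4 peaks scored from 21 to 164 with a median of 46.5, against 65 in the whole list. Of the HDAC3 peaks, 18 of 30 (60%) stood within 4 tags of the calling threshold of 16, against 44.4% of the whole list, and 8 exceeded the list's median score. Of the KLF4 peaks, 1 of 10 stood within 4 tags of the threshold of 19, 4 exceeded the list's median score, and none was in the highest score decile. HDAC3 had 2 peaks in its highest decile, at Krtap2-4 and outside Krtap11-1.

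Few input tags underlie these peaks, as in the whole lists, whose median input was 2 tags for HDAC3 and 3 for KLF4. Scaled tags are not the tag number of the score, so some fall below the calling threshold. Scaled to the input library, HDAC3 peaks held 8.8 to 48.9 tags (median 12.2) over 0.5 to 7 input tags (median 2), and KLF4 peaks 9.5 to 71.5 tags (median 20.8) over 1 to 5 input tags (median 3.5); an input of 0 is written as 0.5 in the lists. Enrichment over input had a median of 7.88-fold for HDAC3 (4.08 to 22) and 9.05-fold for KLF4 (4.52 to 14.9), against 6.85 and 8.6 in the whole lists. With an input of 2 tags, the exact Poisson interval runs from 0.242 to 7.22 tags, so the fold of a single low peak is poorly fixed.

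**Figure D2:**
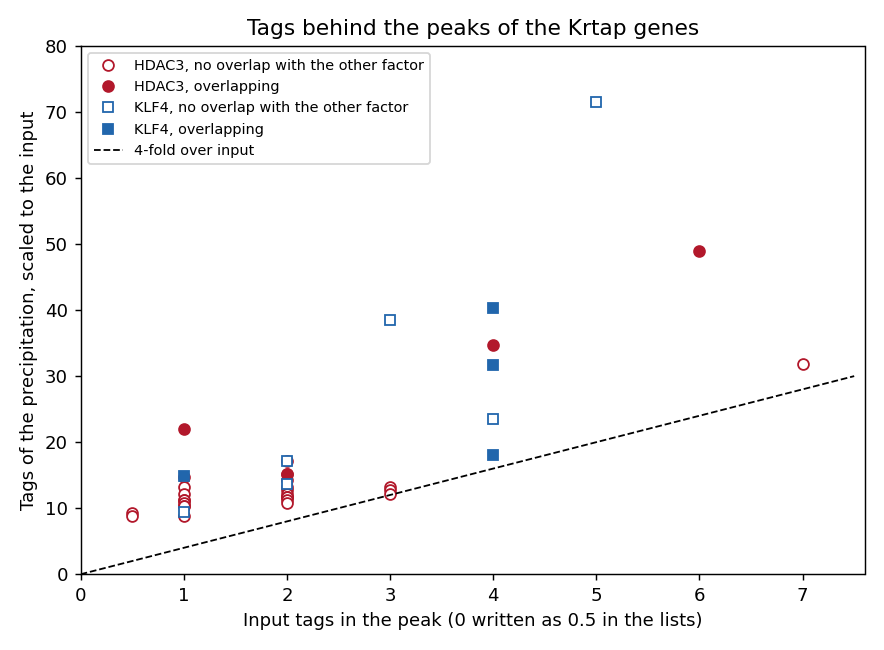
Each point is a peak of the Krtap genes: the x axis gives its input tags and the y axis the tags of the precipitation scaled to the input, with HDAC3 as red circles and KLF4 as blue squares, filled where peaks of the 2 factors overlap and open elsewhere. The dashed line is the 4-fold limit of the caller; most HDAC3 points lie at 1 to 3 input tags and below 20 scaled tags, and the KLF4 peak at Krtap3-3 is highest at 71.5.

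Both factors met at 4 sites assigned to members. Peaks, all of 1 fixed width, were taken to overlap where they had at least 1 bp in common. Of the 30 HDAC3 peaks 4 overlapped a KLF4 peak (13.3%, 3.76 to 30.7), against 25.8% of the whole list, and the same 4 sites made up 4 of the 10 KLF4 peaks (40%, 12.2 to 73.8), against 31.7%. The sites lay at Krtap9-3, at Krtap2-4, between Krtap16-1 and Krtap17-1, and outside Krtap11-1.

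Of the high-sulfur class, Krtap2-4 (chr11:99614017-99614846, minus strand) had the strongest HDAC3 peak of the members. That peak, at chr11:99615075-99615259 and centred 321 bp upstream of the start, scored 85 and held 48.9 scaled tags over 6 input tags (exact Poisson interval 2.2 to 13.1), an enrichment of 8.16-fold, or 3.74 to 22.2 over the input's interval. It covered the 22 bases of the Krtap2-4 window that lie farthest from the start. The KLF4 peak, at chr11:99615229-99615413 and 475 bp upstream, scored 41 and held 18.1 scaled tags over 4 input tags (1.09 to 10.2), which is 4.52-fold, close to the 4-fold limit of the caller. The centres were 154 bp apart, so these peaks shared little more than their edges.

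Of the ultrahigh-sulfur class, Krtap9-3 (chr11:99597348-99598106, minus strand) had the KLF4 peak nearest to a start. It lay at chr11:99598119-99598303, centred 105 bp upstream, scored 88 and held 40.3 scaled tags over 4 input tags (1.09 to 10.2), which is 10.07-fold, or 3.93 to 37 over the input's interval. The HDAC3 peak, at chr11:99598202-99598386 and centred 188 bp upstream, scored 29 and held 15.2 scaled tags over 2 input tags, which is 7.59-fold. Here the KLF4 peak was above the median of its list, and the HDAC3 peak was in the third decile of its list, counted from the highest. The centres were 83 bp apart.

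Krtap3-3 (chr11:99550132-99550863, minus strand), a high-sulfur gene at the border of the cluster, had the strongest KLF4 peak of the members. The peak, at chr11:99549676-99549860, was centred 364 bp beyond the 3′ end of the gene, scored 164 and held 71.5 scaled tags over 5 input tags (1.62 to 11.7), which is 14.3-fold, or 6.13 to 44 over the input's interval. No HDAC3 peak overlapped it. The nearest was 2720 bp away on the upstream side of Krtap3-3, scored 21 and lay 1625 bp from the gene, the smallest distance among the peaks outside the 1 kb limit.

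The other genes with a gene-end peak had 1 factor each. Krtap4-1, an ultrahigh-sulfur gene, had a KLF4 peak inside it, 573 bp downstream of the start (chr11:99627574-99627758, score 52, 23.5 scaled tags over 4 input tags, 5.88-fold). Krtap9-5, of the same class, had an HDAC3 peak inside it, 1078 bp downstream of the start and 49 bp from its 3′ end (chr11:99949410-99949594, score 23, 15.2 scaled tags over 2 input tags). The high glycine-tyrosine gene Krtap6-2 had an HDAC3 peak inside it, 572 bp downstream of the start (chr16:89419447-89419631, score 19, 10.8 scaled tags over 1 input tag). In Krtap19-5, of that class too, the HDAC3 peak was centred 859 bp upstream (chr16:88897216-88897400, score 19, 11.7 scaled tags over 2 input tags), the largest distance inside the 1 kb limit. The last 3 peaks are low ones, at or within a few tags of the list's median of 22.

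Classes were assigned to members by family number from general knowledge, with Krtap16-1 assigned singly, and no protein sequence was read. By class, HDAC3 gene-end peaks were found at 1 of 19 high-sulfur genes, 2 of 17 ultrahigh-sulfur genes and 2 of 15 high glycine-tyrosine genes. KLF4 gene-end peaks were found at 2 high-sulfur and 2 ultrahigh-sulfur genes, and at 0 of the 15 high glycine-tyrosine genes. The 5 genes not assigned to a class had none. All high glycine-tyrosine genes lie on chromosome 16, so their class cannot be compared between clusters. Within the high-sulfur class, 1 of 8 genes on chromosome 11 had an HDAC3 and 2 a KLF4 gene-end peak. None of the 8 on chromosome 16 and of the 3 on chromosome 10 had either. Within the ultrahigh-sulfur class, 2 of 12 genes on chromosome 11 had an HDAC3 and 2 a KLF4 gene-end peak, and none of the 5 on chromosome 7 had either. Over all protein-coding genes the shares were 18.9% for HDAC3 and 23.1% for KLF4. These groups are small, and differences between classes or clusters were not tested.

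The chromosome 11 cluster held 7 of the 10 KLF4 peaks and 13 of the 30 HDAC3 peaks assigned to members, against 3 and 14 on chromosome 16. It runs 444 kb from Krtap3-3 to Krtap17-1 and lies among the type I keratin genes, with 15 other coding genes interspersed. It contained 22 HDAC3 peaks, or 49.6 per Mb, and 9 KLF4 peaks, or 20.3 per Mb. Over the 2703 Mb spanned by annotated genes the means were 21.4 and 17.4 per Mb. The 1037 kb from Krt222 to Krt42, which contain the cluster, held 57.8 HDAC3 and 58.8 KLF4 peaks per Mb. The Lce stretch held 111 and 94.1 per Mb and the Sprr stretch 59.7 and 66.7. The short chromosome 7 group had 53.9 HDAC3 and 15.4 KLF4 peaks per Mb and the chromosome 10 group 17.1 and 34.3, each from 7 peaks or fewer. In the chromosome 11 cluster, HDAC3 gene-end peaks were found at 3 of 23 members and KLF4 gene-end peaks at 4. The shares of all genes were 18.9% and 23.1%.

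Within that cluster the peaks were unevenly spread. The 117 kb from Krtap3-3 to Krtap4-6, counted from 1 kb outside Krtap3-3 so that the KLF4 peak beyond its 3′ end is included, with 12 members of the Krtap1, 2, 3, 4 and 9 families, held 8 KLF4 peaks of score 40 to 164 (median 70) and 6 HDAC3 peaks of score 21 to 113 (median 37.5). The other 329 kb, with 11 members, held 2 KLF4 peaks of score 25 and 35, and 16 HDAC3 peaks of score 18 to 34 (median 20.5). The split was set after the peaks had been seen and is a description. A stretch of 177 kb without a KLF4 peak contained 7 members, Krtap4-16, Krtap9-1, Krtap31-1, Krtap31-2, Krtap9-5, Krtap29-1 and Krtap16-1.

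**Figure D3:**
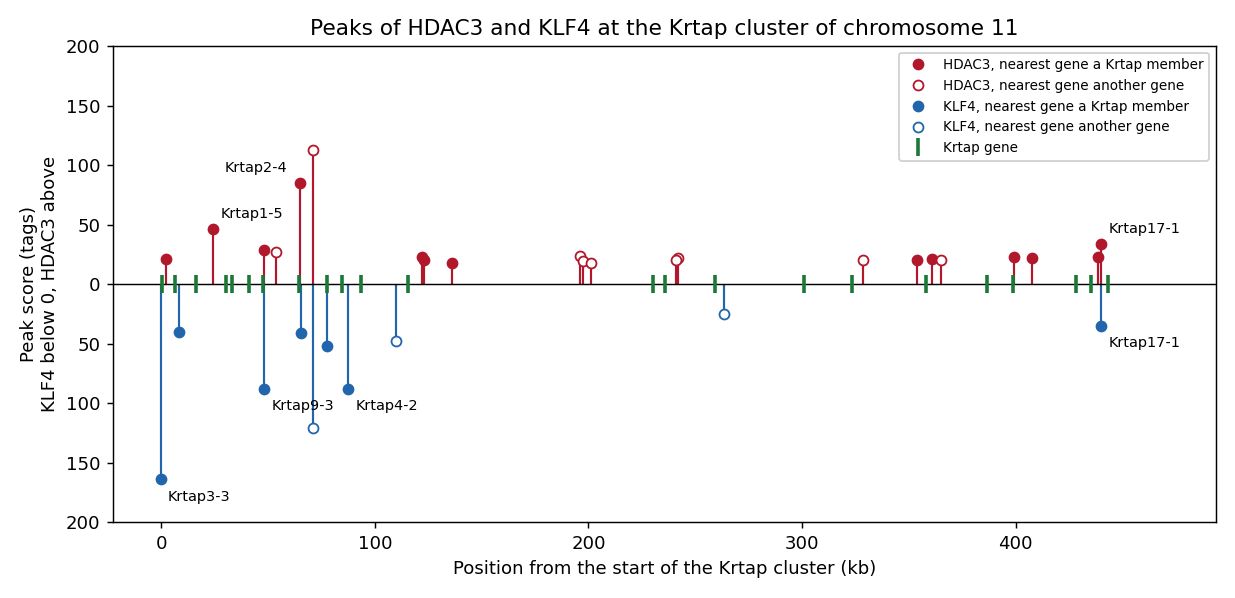
Peaks of the chromosome 11 cluster by distance from its start (x axis, kb) and score (y axis, tags; HDAC3 upwards in red, KLF4 downwards in blue), with Krtap genes as green ticks; filled points are peaks whose nearest coding gene is a Krtap gene and open points those nearest to another gene. The KLF4 peaks crowd into the first 117 kb, where the highest scores of both factors lie, and the HDAC3 peaks beyond it score 34 or less.

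The strongest pair inside the cluster was assigned by distance to Gm11562, a coding gene between Krtap2-4 and Krtap4-1 that has no Krtap symbol. Its HDAC3 peak, at chr11:99620876-99621060, scored 113 and was 8.99-fold over input, and its KLF4 peak, at chr11:99620867-99621051, scored 121 and was 6.67-fold over input. The centres were 9 bp apart, 564 and 555 bp outside Gm11562. Peaks nearest to coding genes without a Krtap symbol made up 9 of the 22 HDAC3 peaks and 3 of the 9 KLF4 peaks in the cluster. Some such genes of the clusters may encode keratin-associated proteins too, which would move their peaks to the members: in the gene table, Gm10272 on chromosome 10 and 2310057N15Rik on chromosome 16 have a Krtap name as a synonym, and neither had a gene-end peak. What the others encode was not examined. Several other peaks stood between genes: Krtap4-2, an ultrahigh-sulfur gene, had a KLF4 peak 2442 bp upstream (score 88, 12.82-fold), Krtap3-2 one 1738 bp upstream (score 40), and Krtap1-5 an HDAC3 peak 5638 bp beyond its 3′ end (score 46, 4.54-fold).

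At the far border, Krtap17-1 (chr11:99993232-99993994, minus strand), an ultrahigh-sulfur gene, had a shared site beyond its 3′ end. The HDAC3 peak, at chr11:99990007-99990191, scored 34 and held 22.0 scaled tags over 1 input tag, which is 22.02-fold. The KLF4 peak, at chr11:99990050-99990234, scored 35 and held 14.9 scaled tags over 1 input tag. The centres were 43 bp apart and 3133 and 3090 bp from the gene, on the side of Krtap16-1, which had an HDAC3 peak of its own 2067 bp upstream (score 23).

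The chromosome 16 cluster was sparse. It runs 960 kb from Krtap24-1 to Krtap11-1 and mixes high-sulfur with high glycine-tyrosine genes. It contained 11 HDAC3 peaks, or 11.5 per Mb, and 1 KLF4 peak, or 1.04 per Mb, against genome means of 21.4 and 17.4. That KLF4 peak scored 21, close to the threshold of 19, and lay 16354 bp upstream of Krtap19-5 (chr16:88912711-88912895, 9.5 scaled tags over 1 input tag). The HDAC3 peaks inside the cluster scored at most 25.

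Long stretches of the chromosome 16 cluster had no peak. No KLF4 peak lay in the 696 kb beyond the one near Krtap19-5, which hold 12 members from Krtap19-9b to Krtap11-1. No HDAC3 peak lay in 413 kb with 6 members, among them Krtap6-1, Krtap6-3 and Krtap20-2. The gene farthest from either factor was Krtap20-2, a high glycine-tyrosine gene, 199619 bp from an HDAC3 peak and 293058 bp from a KLF4 peak. At the border, Krtap24-1 was 14917 bp from an HDAC3 peak of score 17 and 40129 bp from a KLF4 peak of score 50.

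Outside the cluster, beyond Krtap11-1 (chr16:89570176-89571183, minus strand), a high-sulfur gene at its border, lay the strongest site of both factors on this chromosome that was assigned to a member. The HDAC3 peak, at chr16:89608558-89608742, scored 64 and held 34.7 scaled tags over 4 input tags (1.09 to 10.2), which is 8.69-fold, or 3.39 to 31.8 over the input's interval. The KLF4 peak, at chr16:89608550-89608734, scored 71 and held 31.7 scaled tags over 4 input tags, which is 7.92-fold. The centres were 8 bp apart, and the site was 37 kb upstream of the gene, 37467 and 37459 bp by the centres. Another 5 HDAC3 peaks of score 16 to 20 and 1 KLF4 peak of score 30 were assigned to Krtap11-1 from distances between 22669 and 100279 bp, which rest on no coding gene being closer.

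**Figure D4:**
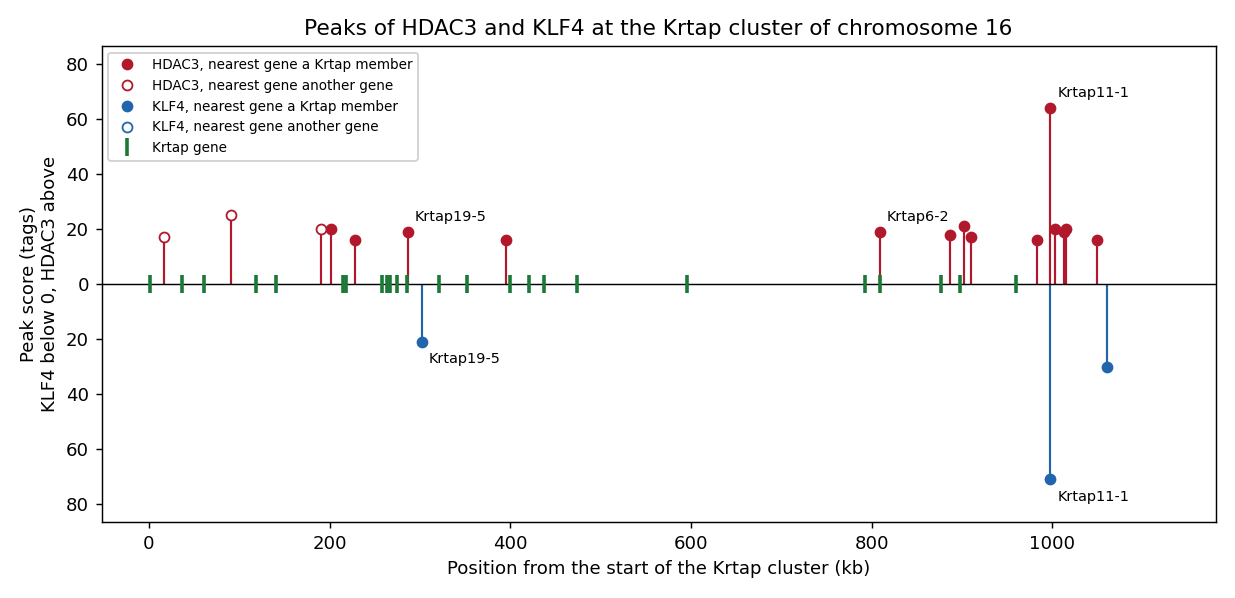
Peaks of the chromosome 16 cluster by distance from its start (x axis, kb) and score (y axis, tags; HDAC3 upwards in red, KLF4 downwards in blue), with Krtap genes as green ticks; filled and open points as for chromosome 11. Inside the 960 kb of the cluster HDAC3 peaks score 25 or less and KLF4 has 1 peak, of score 21, while the shared site of scores 64 and 71 stands outside the last gene.

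The smaller groups had no gene-end peak. On chromosome 7 the 5 ultrahigh-sulfur genes of the Krtap5 family, from Krtap5-2 to Krtap5-4, lay 6289 to 14846 bp from an HDAC3 peak and 12114 to 43504 bp from a KLF4 peak. The 1 peak assigned to a member there was an HDAC3 peak of score 19, 6289 bp beyond the 3′ end of Krtap5-1. The other 6 HDAC3 and both KLF4 peaks in those 130 kb were nearest to coding genes without a Krtap symbol. The highest HDAC3 peak, of score 49, was 3919 bp outside Gm10013 and 595 bp from a KLF4 peak of score 40. The higher KLF4 peak, of score 52 and 7.84-fold over input, was 1382 bp outside Gm46022. It overlapped an HDAC3 peak of score 20, with centres 133 bp apart.

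On chromosome 10 all 3 members lie inside Tspear, a gene of hair follicle and tooth development (chr10:77686108-77886994). Every peak in the group therefore fell inside Tspear and none was assigned to a member. The strongest was a shared site at chr10:77821416-77821600, with a KLF4 peak of score 554 (34.18-fold over input) and an HDAC3 peak of score 112 (8.32-fold) whose centres were 9 bp apart. It lay 4661 bp from Krtap10-4 by the KLF4 centre and 4670 bp by the HDAC3 centre. At the borders, Krtap12-1 was 4057 bp from a KLF4 peak of score 58 and Krtap10-10 was 4051 bp from one of score 27. On chromosome 1, Krtap28-13 had 2 HDAC3 peaks of score 17 and 18, 4871 and 4316 bp upstream, and its closest KLF4 peak was 21639 bp away.

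**Figure D5:**
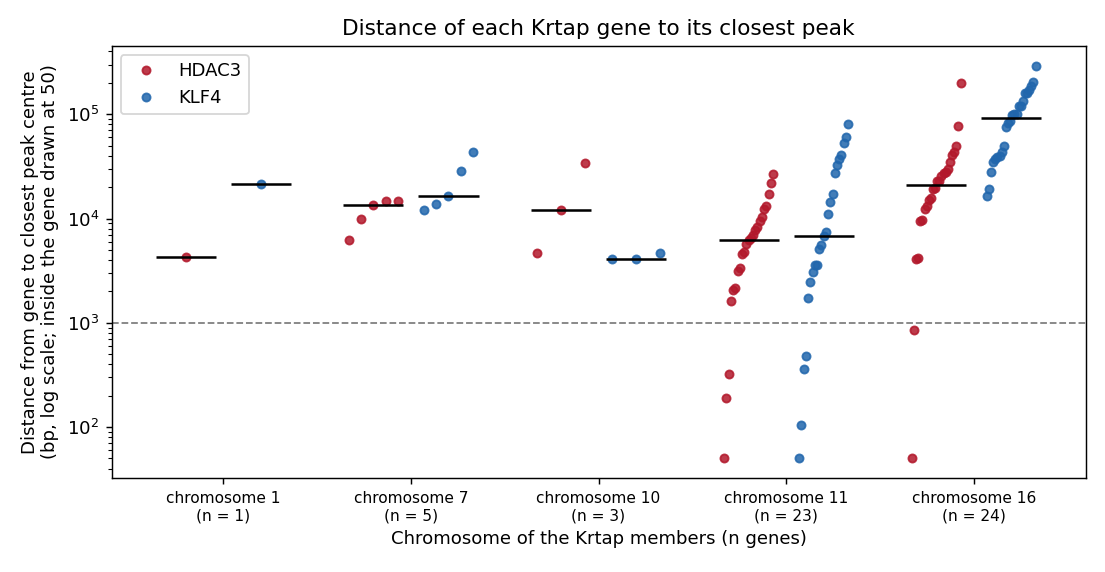
Distance from each of the 56 Krtap genes to the centre of its closest peak (y axis, bp, log scale; peaks inside the gene are drawn at 50 bp) by chromosome, HDAC3 in red and KLF4 in blue, with medians as black bars and the 1 kb limit as a dashed line. On chromosome 11 the medians are 6261 and 6834 bp, and on chromosome 16 they are 21148.5 bp for HDAC3 and 92117.5 bp for KLF4.

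Over all 56 genes the closest HDAC3 peak was a median of 11282.5 bp away and the closest KLF4 peak 30634 bp, against 734 and 1381 bp over all protein-coding genes, where a peak inside the gene counts as 0 and longer genes hold more of them. The closest KLF4 peak was more than 50 kb away for 18 members (32.1%), against 22% of all genes, and the closest HDAC3 peak for 2 (3.57%), against 14.3%. So the members had a larger median distance to HDAC3 than all genes, but a smaller share of them lay that far from it.

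Genes listed as partners of the members in the hair shaft were counted. Gene-end peaks are read against 18.9% of all genes for HDAC3 and 23.1% for KLF4, and peaks nearest to a gene or within 1 kb of its ends against 65.3% and 60.3%. Of 9 type I hair keratin genes, none had an HDAC3 gene-end peak and 1, Krt40, a KLF4 peak (score 62). Of 6 type II hair keratin genes found in the gene table, Krt86 had both (27 and 92). By the nearest-peak rule, HDAC3 was found for 6 of the 9 type I genes (66.7%) and KLF4 for 8 (88.9%), with scores of up to 156 for HDAC3 at Krt33b and 284 for KLF4 at Krt32. Of the 6 type II genes, 1 (16.7%) had an HDAC3 peak by that rule and 3 (50%) a KLF4 peak.

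Among 9 genes of the inner root sheath, the layers that mould the shaft, Krt25 (62 and 88) and Krt27 (40 and 59) had gene-end peaks of both factors, Krt72 of HDAC3 (28) and Tchhl1 of KLF4 (54). The list thus had HDAC3 at 3 genes and KLF4 at 3 (33.3% each). Of 12 regulators of the shaft, 3 had an HDAC3 and 3 a KLF4 gene-end peak (25% each), near the shares of all genes. Hoxc13, a homeobox factor that activates hair keratin genes, had scores of 33 and 54, and Foxn1, the nude gene, 44 and 87. Lef1, the Wnt effector, had HDAC3 alone (21) and Ovol1 KLF4 alone (171). All 12 regulators (100%) were nearest to at least 1 HDAC3 peak and 11 (91.7%) to a KLF4 peak, with scores of up to 179 and 528 at Prdm1 for HDAC3 and KLF4 and of up to 639 at Ovol1 for KLF4. The list for shaft cross-linking held 8 genes of enzymes and other proteins. Of these, Tgm5 (55 and 130) and Tgm1 (92 and 293), both transglutaminase genes, had both factors at an end. Padi1 (74) and Qsox1 (60) had KLF4 alone, which makes 25% for HDAC3 and 50% for KLF4. Padi3, Tgm3, S100a3 and Crisp1 of that list had no gene-end peak of either factor. None of these lists was tested, and whether the listed genes act in the shaft or elsewhere in this tissue was not examined.

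Occupancy is no measure of RNA, and the cells that gave a peak are not known. Over all protein-coding genes, 18.9% had an HDAC3 and 23.1% a KLF4 gene-end peak. At gene ends, 0 of 8 keratinocyte genes (among them Krt14, Krt1, Krt10 and Trp63) had HDAC3 and 2 had KLF4. Of 7 hair follicle genes, 4 had HDAC3 and 0 had KLF4. The 4 were Shh, Sox9, Wnt10b and Lef1. Lef1 was also counted among the shaft regulators. By the nearest-peak rule, which 65.3% of all genes met for HDAC3 and 60.3% for KLF4, 7 of the 8 keratinocyte genes had a peak of each factor, Krt5 being the exception, and so did all 7 hair follicle genes. Genes of other cells were not free of peaks. At gene ends HDAC3 was at 2 of 5 melanocyte and 2 of 5 fibroblast genes and KLF4 at 2 and 1, and neither was at any of 3 immune and 3 endothelial genes. By the nearest-peak rule HDAC3 had peaks at 5 of 5 melanocyte and 5 of 5 fibroblast genes and KLF4 at 4 of each 5, and the immune and endothelial counts were 3 of 3 each for HDAC3 and 2 and 3 of 3 for KLF4. These lists therefore do not separate keratinocytes from other cells. How many hair follicle cells the epidermal preparation held is not given in the sources used here. Their part in the low share of members with a gene-end peak was not tested.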

How the data were processed

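ChIP-seq of E18.5 mouse epidermis gave 3 libraries, grouped by antibody in the labels, 1 per group. The submitters' processing notes name STAR, HOMER and bcl2fastq and the build GRCm38.p5, without versions of the tools. Peaks of 185 bp were called with HOMER in factor style, each precipitation alone against the same input, per the file headers. The limits were a 4-fold excess over the input and over the local 10000 bp, a Poisson p of 1.00e-04 and a false discovery rate of 0.001. Tag totals were 56787485 for HDAC3 and 61432711 for KLF4, per the file headers. The deposited tag signal was scaled by the authors to the input library. The score, a tag number set by the authors' caller, was used for ranking inside 1 list. Enrichment over input is a ratio from the authors' caller. The deposited p-value columns and the focus ratio, a deposited fraction, were not used.

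Peak centres were placed on the RefSeq gene table of GRCm38.p6, chromosomes 1 to 19, X and Y, in Python 3.11.15 with pandas 2.3.3, numpy 2.4.6, scipy 1.17.1 and matplotlib 3.10.9; strand came from the promoter table. Window, nearest-gene and overlap steps were checked on simulated data. Intervals are exact Clopper-Pearson or Poisson at 95% and cover counting error only. PCR copies are not independent molecules, which limits the Poisson intervals of input tags. Neighbouring genes are not independent, which limits the Clopper-Pearson intervals. Clusters are members with gaps of at most 500 kb. Members with a gene-end peak, with a peak in the highest decile, with the highest peak of a cluster, or at a cluster's border are named; list genes are named where they have a gene-end peak or one of the 3 highest peaks. Other names, Gm11562 and Tspear among them, were chosen after their values were seen. Members, lists and classes were chosen with earlier results of these data known. Windows, peak thresholds, overlap limits and the gene table were varied.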

Additional observations from a re-analysis of the deposited data

How the results depend on the processing

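No paired analysis was possible because each antibody had 1 library and no test was run. Of 38 alternatives for 7 results, 23 stayed within the counting interval of a share or within 1.5 times a count, and 15 did not. With 5 kb in place of 1 kb, the share of members was 28.6% for HDAC3, 21.4% for KLF4 and 12.5% for both. With any nearest peak, the HDAC3 share was 33.9%. Among peaks at least 8-fold over input, 0 members had both factors, against 2.86% of all protein-coding genes; 15 HDAC3 and 6 KLF4 peaks were nearest to a member, and 1 of each overlapped the other factor. Among peaks scoring above the median of their list these numbers were 8, 4 and 2 of each. With noncoding genes among the nearest genes, 18 HDAC3 and 6 KLF4 peaks were assigned to a member. Lower counts follow from fewer peaks or more genes entering. Under each alternative the share of members with HDAC3, with KLF4 and with both was below that of all genes counted the same way. One alternative also counted peaks inside the gene, which gives longer genes more room. Members had a median length of 833 bp, against 17169 bp over all protein-coding genes. The nearest-peak rule depends on the crowding of the clusters. How far gene length and crowding lower the members' shares was not tested. Input of 0.5 to 7 tags limits the precision of every fold.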
